A study of Mus musculus with 24 samples.

Results

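The Gadd45 family has 3 members, Gadd45a, Gadd45b and Gadd45g, and each was read by 1 probe set of a mouse whole-transcript Affymetrix array. The members were taken as the probe sets whose platform symbol is one of these names, which gave 3 of the 19505 genes with a probe set. They are TC0600002422.mm.2 for Gadd45a (Entrez gene 13197, chromosome 6), TC1000000877.mm.2 for Gadd45b (Entrez gene 17873, chromosome 10) and TC1300000607.mm.2 for Gadd45g (Entrez gene 23882, chromosome 13). The RNA came from 12 mice (C57Bl/6j males, 8 to 10 weeks old), and each hemisphere had its own array. Middle cerebral artery occlusion (MCAO), in which a filament blocks a main artery of one hemisphere to model ischemic stroke, was done in 8 mice with 90 min of occlusion and 30 min of reperfusion, and 4 mice had sham surgery. All brains were perfused with saline and taken 2 h after onset. The 4 groups were the hemisphere on the operated side (ipsilateral, IP) and the opposite one (contralateral, CL) after MCAO, with 8 arrays each, and the same hemispheres after sham surgery, with 4 arrays each.

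Gadd45 genes code for small acidic proteins without known enzyme activity that are made in response to DNA damage and other stress. The proteins bind MAP3K4, the kinase at the head of a p38 and JNK cascade, and also bind the replication clamp PCNA and the CDK1 and cyclin B1 complex of the G2/M transition. They have also been tied to active DNA demethylation through base excision repair. Gadd45a is a classic target of the tumor suppressor p53. Gadd45b is induced by neuronal activity in the mouse hippocampus, where it has been linked to demethylation of regulatory regions of the growth factor genes Bdnf and Fgf1. Gadd45g is induced by growth factors, cytokines and stress in many cell types.

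The promoters are shown because the results turn on how the members differ in RNA signal, and one of the gene lists holds transcription factors known to act on Gadd45 genes. Each window runs from 250 bases before to 50 bases after the transcription start, 5′ to 3′ on the gene's own strand, and was taken from RefSeq (GRCm38.p6, 1 window for each of the 3 genes). The windows are chr6:67037358-67037657 on the minus strand for Gadd45a, chr10:80929841-80930140 on the plus strand for Gadd45b and chr13:51846425-51846724 on the plus strand for Gadd45g. Capitals mark matches, on either strand, to CCAAT (the box read by NF-Y), TATAAA (the box read by TBP), CACGTG (an E-box) and ATTTGCAT (the octamer bound by Oct-1). The octamer was added to the search after the sequences had been seen.
Gadd45a: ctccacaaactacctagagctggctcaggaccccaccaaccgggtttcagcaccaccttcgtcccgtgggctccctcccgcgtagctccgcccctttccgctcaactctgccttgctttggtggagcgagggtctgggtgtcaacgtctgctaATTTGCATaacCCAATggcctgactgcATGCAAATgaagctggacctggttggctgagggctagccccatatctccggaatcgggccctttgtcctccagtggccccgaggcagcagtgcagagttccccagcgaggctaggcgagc
Gadd45b: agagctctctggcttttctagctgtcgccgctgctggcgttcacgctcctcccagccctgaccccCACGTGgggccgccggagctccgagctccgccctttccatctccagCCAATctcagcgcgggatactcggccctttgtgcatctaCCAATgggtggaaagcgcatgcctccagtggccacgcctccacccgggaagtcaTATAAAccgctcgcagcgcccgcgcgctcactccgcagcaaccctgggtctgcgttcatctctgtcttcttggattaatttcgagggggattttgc
Gadd45g: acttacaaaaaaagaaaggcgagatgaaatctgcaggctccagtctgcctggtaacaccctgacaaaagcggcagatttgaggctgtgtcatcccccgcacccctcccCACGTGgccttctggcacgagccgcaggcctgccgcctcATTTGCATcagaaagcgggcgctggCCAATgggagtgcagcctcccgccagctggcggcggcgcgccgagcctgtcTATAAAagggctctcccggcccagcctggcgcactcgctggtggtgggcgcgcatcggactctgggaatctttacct

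All 3 windows were rich in GC, at 61% in Gadd45a, 62% in Gadd45b and 62.3% in Gadd45g, against a median of 52.7% over 32851 RefSeq promoter windows. They held 14, 24 and 21 CpG dinucleotides in the same order, against a median of 7. The CCAAT box, found in 37.4% of all windows, was present in each of the 3, at 86 bases before the start in Gadd45a, at 139 and 100 bases in Gadd45b and at 78 bases in Gadd45g. The TATA box (13.6% of windows) and the E-box (7.15% of windows) were found in Gadd45b and Gadd45g and not in the Gadd45a window. The octamer (1.74% of windows) was matched at 2 places in Gadd45a, at 97 bases on the plus strand and 70 bases on the minus strand, and once in Gadd45g at 103 bases. None of the 3 windows held TGACGTCA (the cAMP response element, 1.79% of windows), its shorter core TGACG (20.8%), TGANTCA (the AP-1 site, 7.81%), the CArG box (1.63%), the kappaB site (4.51%) or GTAAACA (the FoxO site, 3.65%). GCGNGGGCG (the Egr site, 5.55%) was matched in Gadd45b alone among the 3, at 30 bases before the start on the minus strand. TGATGNAA (read by ATF4 and C/EBP factors, 3.97%) was matched in Gadd45g, where it overlaps the octamer. ACGTG, the core of the HIF site (19.6%), occurred only inside the E-boxes. These matches describe letters in the windows and not bound sites.

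All arrays of MCAO mouse 3 and of sham mouse 1, 4 in number, stood apart from the other 20. Their median correlation with other arrays was 0.328 to 0.55, against 0.981 to 0.989, and the 95th percentile of their negative control probe sets was 7.41 to 7.61 log2 units, against 5.17 to 5.74. Results are therefore given on 24 arrays and on the 20 arrays without these mice. A signal is called above background where it exceeded that percentile on its own array. Markers of neurons, astrocytes and oligodendrocytes were above background on at least 1 array of every group, and those of choroid plexus and the erythroid marker were not in any group of the 20 arrays. The summed signal of the 8 neuronal markers was 13.38 to 13.57 log2 units in MCAO IP, 13.36 to 13.58 in MCAO CL, 13.40 to 13.50 in sham IP and 13.39 to 13.51 in sham CL hemispheres of these 20 arrays. In whole hemispheres, fewer cells of a type and less RNA per cell cannot be told apart.

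The Gadd45g signal was highest in the occluded hemisphere. Its log2 signal in the IP hemispheres of MCAO mice 1 to 8 was 7.99, 8.12, 5.59, 8.17, 7.76, 7.98, 7.73 and 8.47, with a median of 7.99. In the CL hemispheres of the same mice it was 6.42, 6.71, 4.80, 6.37, 6.27, 7.88, 6.19 and 6.61, with a median of 6.39. Sham IP hemispheres of mice 1 to 4 had 3.82, 6.22, 6.07 and 5.89, and sham CL hemispheres had 3.84, 6.03, 6.33 and 6.52. The lowest value of each group belonged to MCAO mouse 3 or sham mouse 1. MCAO mouse 6 had the highest CL signal, within the range of the occluded hemispheres. Gadd45g was above background on 7 of 8 MCAO IP, 7 of 8 MCAO CL, 3 of 4 sham IP and 3 of 4 sham CL arrays, with each exception on an array that stood apart. Among all probe sets of its array the median MCAO IP signal lay at percentile 89.5, against 71.2 in MCAO CL, 66.1 in sham IP and 68.7 in sham CL.

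Gadd45b signals were higher in most occluded hemispheres than in sham brains. MCAO IP hemispheres of mice 1 to 8 had log2 signals of 6.36, 6.19, 6.94, 6.93, 5.72, 6.46, 6.68 and 6.95 (median 6.57). MCAO CL hemispheres had 6.41, 5.78, 5.05, 5.95, 5.61, 6.26, 5.86 and 6.25 (median 5.90). Sham IP hemispheres had 5.05, 5.65, 5.84 and 5.50, and sham CL hemispheres had 4.96, 5.66, 5.97 and 5.73. MCAO mouse 5 was the single MCAO mouse whose IP signal lay below the highest sham IP signal, so the groups overlapped by 1 array. Gadd45b was above background on 7 of 8 MCAO IP, 6 of 8 MCAO CL, 2 of 4 sham IP and 3 of 4 sham CL arrays.

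Gadd45a was close to background throughout. Its MCAO IP signals were 5.24, 6.14, 6.11, 5.54, 5.45, 5.85, 5.50 and 5.00 (median 5.52), and its MCAO CL signals were 5.12, 5.42, 6.84, 5.50, 5.52, 5.72, 4.96 and 4.79 (median 5.46). Sham IP hemispheres had 5.06, 4.92, 4.82 and 5.11, and sham CL hemispheres had 7.37, 5.42, 4.99 and 5.24. It was above background on 4 of 8 MCAO IP and 2 of 8 MCAO CL arrays and on 0 of 4 arrays of either sham side. The outlying CL signals of 6.84 and 7.37 came from MCAO mouse 3 and sham mouse 1 and did not exceed the background percentile of their own arrays.

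**Figure D1:**
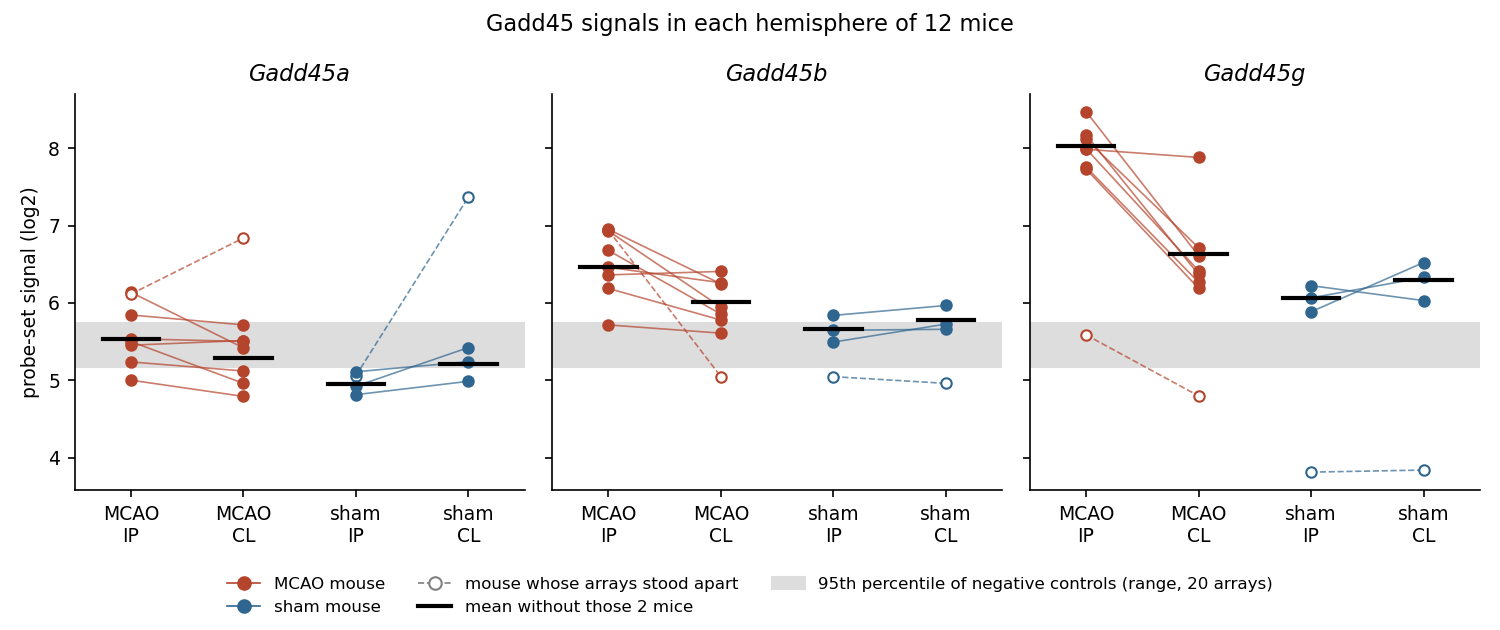
Log2 probe-set signal (y axis) of Gadd45a, Gadd45b and Gadd45g in the 4 groups (x axis), with a line joining the hemispheres of a mouse, open points for the 2 mice whose arrays stood apart, black bars for the mean of the other mice and a gray band for the range of the background percentile on 20 arrays. Gadd45g averages 8.03 in IP and 6.64 in CL hemispheres of 7 MCAO mice, Gadd45b lies above the band in most MCAO IP hemispheres and at or near it in sham hemispheres, and Gadd45a is mostly inside or below it.

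The first comparison set the occluded hemisphere against the opposite hemisphere of the same mouse. The side difference of Gadd45g, its IP minus its CL log2 signal, was 1.58, 1.40, 0.79, 1.80, 1.49, 0.11, 1.54 and 1.86 in MCAO mice 1 to 8. It was positive in 8 of 8 mice, a pattern shown by 0.707% of all probe sets, and 6 mice lay between 1.40 and 1.86. In MCAO mouse 3 neither Gadd45g signal was above background. The mean was 1.32 ± 0.17 (SE, limma, adjusted p = 0.00356), a 2.50-fold higher signal on the occluded side with a 95% interval of the log2 difference of 0.95 to 1.69. On 20 arrays it was 1.40 ± 0.18 (adjusted p = 0.00435). Gadd45g was the 1 member of 3 that passed, where 0.0856% of all 22206 probe sets rose on 24 arrays and 0.126% on 20.

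The side difference of Gadd45b in the same mice was -0.04, 0.41, 1.89, 0.98, 0.11, 0.20, 0.82 and 0.71. It was positive in 7 of 8 mice, and the highest value belonged to MCAO mouse 3, where neither signal was above background. Its mean was 0.63 ± 0.17 (SE, 95% interval 0.27 to 1.00, 1.55-fold), with a limma p of 0.00201 that did not pass after adjustment over all probe sets (adjusted p = 0.647). Without the 2 mice that stood apart it was 0.45 ± 0.12 (adjusted p = 0.355).

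Gadd45a had side differences of 0.12, 0.72, -0.72, 0.03, -0.06, 0.13, 0.54 and 0.21 in MCAO mice. They were above zero in 6 of 8 mice, and in 6 of 7 without MCAO mouse 3, which had the lowest value. The mean was 0.12 ± 0.21 (SE, 95% interval -0.32 to 0.56, adjusted p = 0.951) on 24 arrays and 0.24 ± 0.10 (adjusted p = 0.667) on 20. On 20 arrays its unadjusted limma p was under 0.05, which 1577 of all 22206 probe sets reached in either direction.

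The 3 members were then compared with each other by their side differences within MCAO mice, which are differences within a probe set and not levels. Gadd45g exceeded Gadd45a by 1.20 ± 0.61 (SD, n = 8 mice), in 7 of 8 mice, with a two-sided exact sign-flip permutation p of 0.0156 and 0.0469 after adjustment over the 3 pairs. This call was lost in 6 of 8 omissions of single mice, and Gadd45a was above background in both hemispheres of MCAO mice 2 and 6 only, so its side difference is near the floor of the array in the others. Gadd45g exceeded Gadd45b by 0.69 ± 0.89 in 6 of 8 mice (exact permutation p = 0.0859, adjusted p = 0.117). Without MCAO mouse 3, in which Gadd45b had the greater side difference, that difference was 0.94 ± 0.55 (n = 7, exact permutation p = 0.0313, adjusted p = 0.0469). Gadd45b and Gadd45a differed by 0.51 ± 0.93 (exact permutation p = 0.117, adjusted p = 0.117), so a difference between them was not detectable. The smallest p that 8 mice allow is 0.00781.

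No relation between members among MCAO mice passed. The side differences of Gadd45g and Gadd45b had a Pearson r of -0.07 (exact permutation p = 0.854, n = 8 mice) and a Spearman rho of 0.05 (exact permutation p = 0.935). For Gadd45g and Gadd45a r was 0.31 (exact permutation p = 0.418) and rho 0.12 (exact permutation p = 0.793). Gadd45b and Gadd45a gave an r of -0.56 (exact permutation p = 0.160) and a rho of -0.14 (exact permutation p = 0.752). The adjusted p over these 3 relations was 0.481 or higher for r. Without the 2 mice farthest from the median of the first gene the r values were 0.56, -0.46 and 0.18, so each changed sign.

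Sham mice give the side difference without occlusion. The side difference of Gadd45g was -0.03, 0.19, -0.26 and -0.64 in sham mice 1 to 4, and that of Gadd45b was 0.09, -0.01, -0.13 and -0.23. Gadd45a had -2.31, -0.50, -0.17 and -0.13, below zero in 4 of 4 mice, which 6.35% of all probe sets shared. The means were -0.18 ± 0.25 for Gadd45g, -0.07 ± 0.25 for Gadd45b and -0.78 ± 0.29 for Gadd45a (SE, limma, adjusted p = 0.836, 0.939 and 0.711). Without sham mouse 1 and MCAO mouse 3 Gadd45a was at -0.27 ± 0.16. No member passed, and limma called 0 of 22206 probe sets (0%) in this comparison, with 1390 at an unadjusted p under 0.05.

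**Figure D2:**
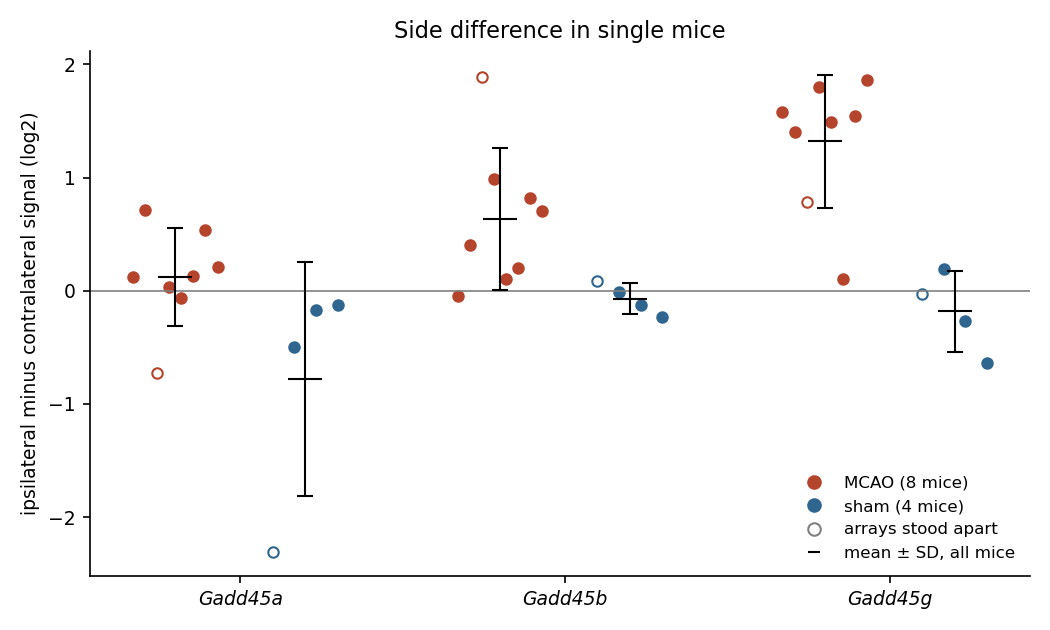
Ipsilateral minus contralateral log2 signal (y axis) of each member (x axis) in single mice, MCAO on the left and sham on the right of each pair, with open points for the mice whose arrays stood apart and bars for the mean ± SD of all mice. Gadd45g is above zero in all 8 MCAO mice and MCAO mouse 6 is the low point at 0.11, while the open points carry the extreme values of Gadd45a and Gadd45b.

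The interaction asked whether the side difference was greater after MCAO than after sham surgery. For Gadd45g it averaged 1.32 ± 0.59 in MCAO mice and -0.18 ± 0.35 in sham mice (SD, n = 8 and 4), a difference of 1.50 ± 0.30 (SE) that did not pass over all probe sets in limma (adjusted p = 0.522, and 0.291 on 20 arrays with 1.63 ± 0.32). A two-sided exact permutation test that regrouped the 12 mice in every possible way gave p = 0.00404 for this gene, where 0.00202 is the smallest possible, and p = 0.0167 over the 120 regroupings of the 10 mice. The groups overlapped only through MCAO mouse 6, at 0.11, and sham mouse 2, at 0.19. For Gadd45b the difference was 0.71 ± 0.30 (adjusted p = 0.891, exact permutation p = 0.0465) and for Gadd45a 0.90 ± 0.36 (adjusted p = 0.891, exact permutation p = 0.0263). The value for Gadd45a was smaller without the mice that stood apart, at 0.51 ± 0.19 (exact permutation p = 0.0333), and that of Gadd45b was 0.58 ± 0.22 (exact permutation p = 0.0417). On those 10 mice the side difference of Gadd45a was higher in each MCAO mouse than in each sham mouse. The same held for 1.07% of probe sets. MCAO mouse 5 at -0.06 and sham mouse 4 at -0.13 were nearest to each other. No sham hemisphere, and neither hemisphere of MCAO mouse 5, had a Gadd45a signal that exceeded background. Both sides exceeded it in MCAO mice 2 and 6 only, so this separation of Gadd45a rests largely on signals near the floor. Limma called 0 of 22206 probe sets (0%) in this comparison on either set of arrays, with 1138 at an unadjusted p under 0.05 on 24 arrays and 1312 on 20. The permutation calls of Gadd45b and Gadd45a were lost under quantile normalization (exact permutation p = 0.097 and 0.0626). That of Gadd45b was lost in 8 of 12 omissions of single mice, and Gadd45a was at 0.39 (exact permutation p = 0.145) without sham mouse 1. These p-values are for single genes, 3 of which were tested.

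Set against the ipsilateral hemisphere of sham mice, which saw surgery without occlusion, Gadd45g was the 1 member that passed on 20 arrays. On 24 arrays no member passed. All 3 members were higher at an unadjusted limma p under 0.05 on both sets. Of 22206 probe sets, 225 on 24 arrays and 1661 on 20 had such a p in either direction. Exact permutation tests of single genes on the 12 ipsilateral arrays gave p = 0.00808 for Gadd45g, 0.00606 for Gadd45b and 0.0162 for Gadd45a. Without the mice that stood apart these were 0.00833, 0.025 and 0.0417, where 0.00833 is the smallest possible. Gadd45g averaged 8.03 ± 0.26 in 7 MCAO IP hemispheres and 6.06 ± 0.17 in 3 sham IP hemispheres (SD, 20 arrays). The MCAO signals ran from 7.73 to 8.47 and the sham signals from 5.89 to 6.22, without overlap, a pattern shown by 1.4% of all probe sets. The difference was 1.97 ± 0.16 (SE, limma, 95% interval 1.63 to 2.32, adjusted p = 2.06e-05), a 3.93-fold higher signal, where 0.126% of probe sets rose. On all ipsilateral arrays it was 2.23 ± 0.55 and did not pass (adjusted p = 0.968, where 0.0045% rose). Leaving out MCAO mouse 3 alone gave 2.53 ± 0.39 (adjusted p = 0.0382), and leaving out sham mouse 1 alone gave 1.67 ± 0.49 (adjusted p = 1.00).

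Gadd45b differed by 0.81 ± 0.23 on 20 arrays (adjusted p = 0.353) and 1.02 ± 0.28 on 24 (adjusted p = 0.968). Gadd45a differed by 0.58 ± 0.20 (adjusted p = 0.519) and 0.63 ± 0.25 (adjusted p = 0.968), and no fold is given because it was not above background on any sham IP array. Of 6 endothelial markers, 6 had higher means in MCAO IP than in sham IP hemispheres on 20 arrays and 0 passed. An unadjusted limma p under 0.05 was reached by 2 of them and by 1661 of all 22206 probe sets. The summed signal of the 6 markers was 9.01 to 9.30 log2 units in MCAO IP against 8.58 to 8.89 in sham IP hemispheres. Cldn5, a tight junction gene of brain endothelium, was the marker with the greatest difference (0.89 ± 0.23, adjusted p = 0.285). Between contralateral hemispheres 6 of 6 were also higher after MCAO and 0 passed. An unadjusted p under 0.05 was reached there by 2 of them and by 1020 of all 22206 probe sets. The endothelial median was 0.15 in both comparisons, against 0.01 over all genes. Only 3 of the 6 were above background on any sham IP array. Higher means were not particular to endothelial markers. Of 6 astrocyte markers, 6 were higher between ipsilateral hemispheres (median 0.05) and 5 between contralateral ones (median 0.16). Of 5 microglia markers, 4 and 5 were higher in the same order (medians 0.09 and 0.15). Of these astrocyte and microglia markers, 0 had an unadjusted limma p under 0.05. The part of these markers in the Gadd45 differences was not tested.

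The contralateral hemispheres of MCAO and sham mice were compared in the same way. Gadd45g differed by 0.34 ± 0.29 on 20 arrays and 0.73 ± 0.56 on 24, Gadd45b by 0.23 ± 0.17 and 0.31 ± 0.29, and Gadd45a by 0.07 ± 0.19 and -0.27 ± 0.47 (SE). No member passed and limma called 0 of 22206 probe sets (0%), with 1020 at an unadjusted p under 0.05 on 20 arrays and 81 on 24. The 95% interval for Gadd45g on 20 arrays, -0.27 to 0.96, includes zero and values up to 0.96.

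From these comparisons, the mean Gadd45g signal on 20 arrays was, in falling order, 8.03 in MCAO IP, 6.64 in MCAO CL, 6.29 in sham CL and 6.06 in sham IP hemispheres. Only the step between MCAO IP and MCAO CL passed, and the other neighbors did not differ beyond their spread. Gadd45b had the same order, with 6.47, 6.02, 5.79 and 5.66, while Gadd45a, which was above background on 0 sham arrays, gave 5.53, 5.29, 5.22 and 4.95. On 24 arrays the Gadd45a means were 5.60 in MCAO IP, 5.48 in MCAO CL, 5.76 in sham CL and 4.98 in sham IP hemispheres, so no order is read from them. None of the neighboring steps of Gadd45b or Gadd45a passed.

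**Figure D3:**
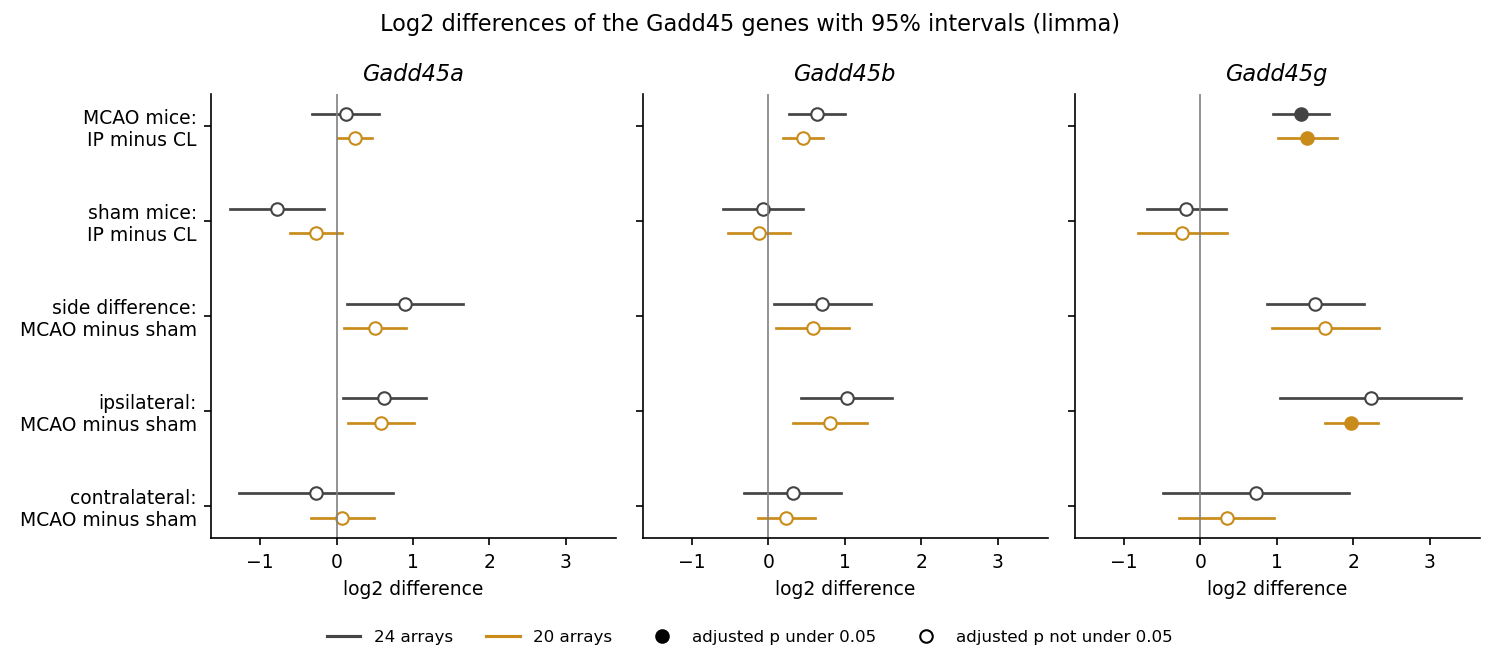
Log2 differences (x axis) with 95% intervals for each member in the 5 comparisons (rows), on 24 arrays in dark gray and 20 arrays in orange, with filled points where the limma adjusted p was under 0.05. Gadd45g is filled in the MCAO side comparison on both sets and in the ipsilateral comparison on 20 arrays, and Gadd45a and Gadd45b have no filled point.

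MCAO mouse 6 was an exception among the MCAO mice, and it was singled out after its values had been seen. Its Gadd45g side difference of 0.11 compares with 1.40 to 1.86 in the 6 other MCAO mice without mouse 3. Its IP signal of 7.98 lay within their range, and its CL signal of 7.88 was above their highest CL signal of 6.71. Without mouse 6 the MCAO side difference of Gadd45g was 1.49 ± 0.15 (SE, limma, adjusted p = 0.00034). For Gadd45b its CL signal ranked 2 of 7 and its side difference was 0.20, between the -0.04 and 0.98 of the others. For Gadd45a its CL signal ranked 1 of 7, at 5.72 against 5.52 in the next mouse.

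The genes whose side difference followed Gadd45g most closely over the 10 mice were Ptgs2, the inducible cyclooxygenase (Pearson r 0.973), Junb, a subunit of AP-1 (0.972), Btg2, an antiproliferative immediate early gene (0.969), and the AP-1 genes Fosb (0.949) and Fos (0.939). These r values pool MCAO and sham mice, so that the difference between the surgeries enters them, and 10102 genes were ranked. Within the 7 MCAO mice alone r was 0.927 for Ptgs2, 0.935 for Junb, 0.978 for Btg2, 0.864 for Fosb and 0.864 for Fos. By these r values the 5 genes ranked 9, 8, 2, 42 and 43 in the same order. Over all 12 mice Ptgs2 ranked 45, and Junb, Btg2, Fosb and Fos ranked 1, 6, 2 and 8.

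All 5 of these genes shared the exception of MCAO mouse 6. In its CL hemisphere Ptgs2 had 7.61 log2 units against at most 7.11 in the 6 other mice, Junb 7.94 against 7.13 and Btg2 7.98 against 7.01. Fosb had 8.33 against at most 6.87, and Fos 8.47 against 7.47. The side differences of mouse 6 were 0.13 for Ptgs2, 0.53 for Junb, 0.30 for Btg2, 0.48 for Fosb and 0.43 for Fos, where the lowest of the other 6 mice was 1.20, 1.28, 1.33, 1.60 and 1.66. Since likeness was measured on these same side differences, the shared exception is part of what made the genes alike.

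**Figure D4:**
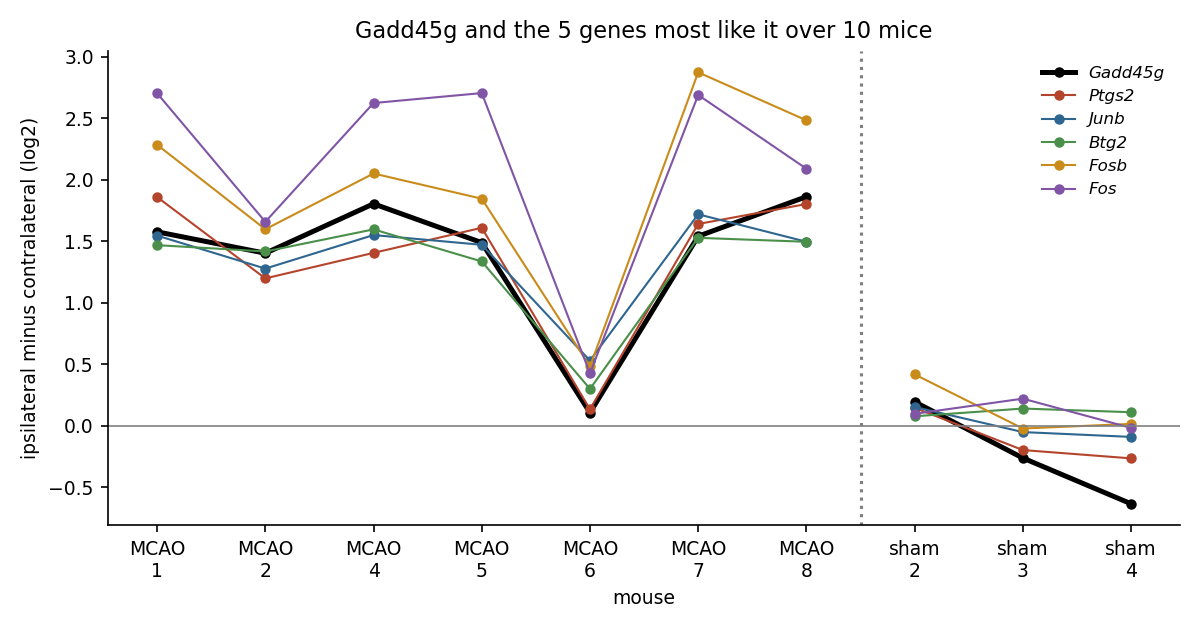
Ipsilateral minus contralateral log2 signal (y axis) of Gadd45g and its 5 most similar genes in 7 MCAO and 3 sham mice (x axis), without the mice whose arrays stood apart. All 6 lines dip at MCAO mouse 6, where Gadd45g is at 0.11, and in the sham mice they lie between -0.64 (Gadd45g, mouse 4) and 0.42 (Fosb, mouse 2).

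The other members had other neighbors. Gadd45b was followed by P4ha1, a collagen prolyl hydroxylase subunit (r 0.910 over 10 mice and 0.869 over the 7 MCAO mice), the tubulin genes Tubb4a (0.905 and 0.986) and Tubb4b (0.904 and 0.912), the complement protease gene Masp1 (0.900 and 0.916) and Tnfaip6, a hyaluronan-binding protein gene (0.891 and 0.865). Gadd45a was followed by the polarity gene Pard6a (0.922 and 0.842), Glmp (0.918 and 0.882), the tetraspanin gene Tspan15 (0.899 and 0.852), the adaptor gene Shc2 (0.867 and 0.909) and Rpf1 (0.864 and 0.846). Shc2 was above background on 0 MCAO arrays and Gadd45a in both hemispheres of MCAO mice 2 and 6 only. The likenesses to Gadd45a therefore rest largely on signals near the floor. Within the 7 MCAO mice these genes ranked from 2 to 84 for Gadd45b and from 16 to 59 for Gadd45a. Over all 12 mice most of these likenesses were not kept. P4ha1, Tubb4a, Tubb4b, Masp1 and Tnfaip6 then ranked 1157, 4430, 1038, 366 and 2990 for Gadd45b. Pard6a, Glmp, Tspan15, Shc2 and Rpf1 ranked 32, 4764, 2194, 1245 and 6281 for Gadd45a, with an r of -0.08 for Glmp and -0.37 for Rpf1. Over the 10 mice Gadd45b ranked 113 among the genes most like Gadd45g (r 0.73) and Gadd45a ranked 580 (r 0.55), so the family members were not among each other's closest genes.

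Genes tied to the family were read from 7 lists, in the MCAO side comparison unless another is named. Of the 15 measured genes of the p38 and JNK cascade, 0 passed in limma, 0 had an unadjusted p under 0.05, and the median was 0.05 against 0.00 over all genes. The smallest p-values belonged to the p38 substrate kinases Mapkapk2 (0.29 ± 0.16, SE) and Mapkapk3 (0.21 ± 0.12), which were above background on 0 MCAO arrays. Map3k4, named here for its binding to Gadd45 proteins with its value already seen, was at 0.01 ± 0.15. Among 4 measured cell cycle and repair partners 0 passed and 0 had an unadjusted p under 0.05, and Pcna, the replication clamp, was at 0.21 ± 0.13 and Cdk1, not above background on any MCAO array, at 0.29 ± 0.16. On 20 arrays 0 members of both lists passed, and 2 of the 15 cascade genes and 1 of the 4 partners were higher at an unadjusted p under 0.05. Of all 22206 probe sets, 1577 had such a p in either direction on these 20 arrays.

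Of the 22 measured genes of DNA demethylation and base excision repair, 0 passed and the median was -0.03. The DNA glycosylase gene Neil1 was the 1 member with an unadjusted p under 0.05 (-0.36 ± 0.14, adjusted p = 0.94), followed by the cytidine deaminase gene Apobec3 (-0.30 ± 0.17). Neil1 was above background on 1 of 8 MCAO IP and 2 of 8 MCAO CL arrays and Apobec3 on 0 of either, so these values lie at the floor. On 20 arrays 0 of the 22 passed, and 1 higher and 1 lower had an unadjusted p under 0.05. Such a p, in either direction, was reached by 1577 of all 22206 probe sets on these 20 arrays and by 918 on all arrays. Neither of the genes linked to Gadd45b demethylation passed. Bdnf, a neurotrophin gene, was at 0.63 ± 0.14 with a positive side difference in 8 of 8 mice (adjusted p = 0.244, and 0.0732 on 20 arrays with 0.70 ± 0.13), and Fgf1 was at 0.17 ± 0.12.

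Transcription factors known to act on Gadd45 genes were the list with the most called members. Of 17 measured, 4 rose and 0 fell, where 0.0856% of all probe sets rose, and the list median was 0.07. Npas4, an activity-induced neuronal factor, was at 2.36 ± 0.41 (adjusted p = 0.0276), Fos at 1.83 ± 0.28 (adjusted p = 0.00885), Atf3, a stress-induced factor, at 1.48 ± 0.21 (adjusted p = 0.00622), and Jun, the AP-1 partner of Fos, at 0.73 ± 0.12 (adjusted p = 0.0129). Atf3 was above background on 0 of 8 CL arrays, so its fold is a bound of at least 1.44. Between ipsilateral hemispheres on 20 arrays 5 of the 17 passed, these 4 and Cebpb, a bZIP factor (adjusted p = 0.0255), where 0.126% of all probe sets rose. Cebpb was above background on 1 of 7 MCAO IP and 0 of 3 sham IP arrays, so its call rests on signals near background and no size is given. Npas4 and Atf3 were also above background on 0 of 3 sham IP arrays, and were at least 16.5-fold and 1.83-fold higher in MCAO IP hemispheres.

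Neither of the other genes of the growth arrest and DNA damage group passed. Ppp1r15a, a regulator of translation also called Gadd34, was at 0.44 ± 0.16 (adjusted p = 0.94, and 0.136 on 20 arrays with 0.56 ± 0.12), and Ddit3, the stress factor CHOP, was at 0.13 ± 0.14. Ppp1r15a was above background on 4 of 8 MCAO IP and 1 of 8 MCAO CL arrays, so its difference lies near the floor. Of 19 measured p53 targets 1 rose and 0 fell, where 0.0856% of all probe sets rose, and the median was 0.19 on 24 arrays and 0.11 on 20. The 1 was Btg2 (1.20 ± 0.17, adjusted p = 0.00622), which is also among the genes most like Gadd45g. Gadd45a, itself a p53 target, was not on this list. These lists were chosen with results of these samples in view, so their counts are not independent evidence.

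**Figure D5:**
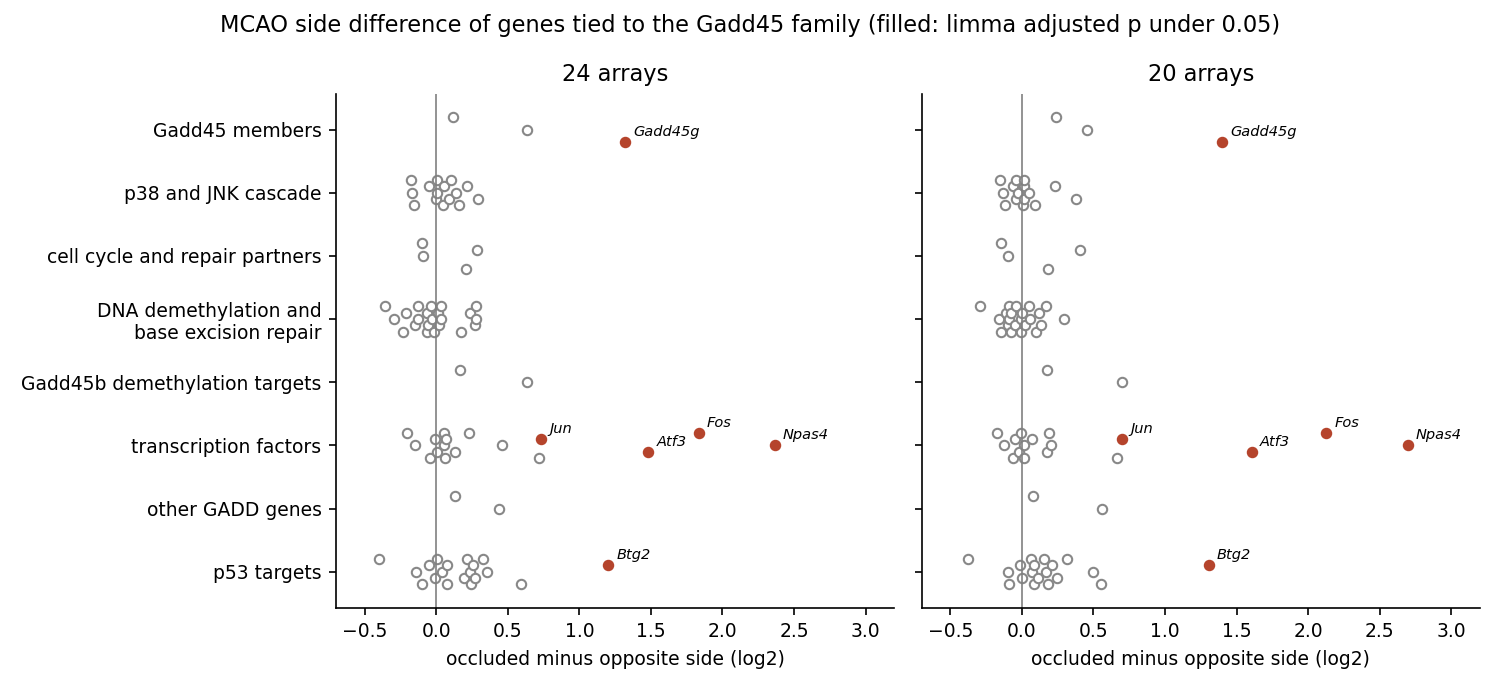
Occluded minus opposite side log2 difference (x axis) of the Gadd45 members and of every measured gene of the 7 lists (rows) on 24 arrays (left) and 20 arrays (right), with filled points where the limma adjusted p was under 0.05. Filled points are Gadd45g, Jun, Atf3, Fos, Npas4 and Btg2 on both sets of arrays, and the kinase, demethylation and repair lists have none.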

How the data were processed

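The authors deposited log2 probe-set signals; the submitters' processing notes name Affymetrix Expression Console as the tool. The normalization, tool version and annotation build were not given in the sources used here. That the scale is log2 was read from the value range. Of 29129 probe sets, 22206 were tested after removal of 6923 controls, with no filter on signal. Each member had 1 probe set, and 0 array pairs were identical.

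Sides were compared by limma 3.58.1 (R 4.3.3) on 24 arrays with the mouse as fixed block, because the labels give both hemispheres of each animal. On 20 arrays, deviations from the group means correlated at 0.112 to 0.307 (median 0.154) within mice, against -0.592 to 0.171 (median -0.042) between mice. These ranges overlap. Surgeries were compared on the 12 arrays of a side. Benjamini-Hochberg adjustment ran over every tested probe set, and the threshold was 0.05. The limma fits and the regrouping and sign-flip permutation tests were also run on simulated data. The data simulated for limma held independent noise without a mouse effect. Errors are SE unless SD is written, and the number of arrays limits precision.

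Named genes were the members, each list's called genes (up to 6) or else its 2 with the smallest p, and the 5 genes most like each member, ranked among those whose mean signal reached the median of all probe sets. Members, lists, tests and the choice of the 4 arrays left out were made with earlier results of these data known. Alternatives covered the mouse block, the samples fitted, the eBayes settings, a filter on dim probe sets, the scaling of arrays (median centring, quantile), array weights, averaging over a gene's probe sets, and omission of each mouse. Of the markers of 9 cell types, 0 passed in the MCAO side or the ipsilateral comparison (limma). RefSeq names (GRCm38.p6) were used. Protein sequences were not used here.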

Additional observations from a re-analysis of the deposited data

Results flagged for a closer look

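Of 18 groups of member values searched for a sample far from the others, 4 held one, and chance gives about 1 in 20. All 4 belonged to the mice whose arrays stood apart. Gadd45g was lowest in MCAO mouse 3 among MCAO IP hemispheres (5.59 log2 units) and in sham mouse 1 among sham IP hemispheres (3.82). Gadd45a was highest in MCAO mouse 3 among MCAO CL hemispheres (6.84), and its side difference was lowest in sham mouse 1 among sham mice (-2.31).

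The side difference was greater in MCAO mice than in sham mice by 1.50 for Gadd45g, 0.71 for Gadd45b and 0.90 for Gadd45a, each with an exact permutation p under the threshold and a limma adjusted p above it. The permutation call of Gadd45g was kept in 12 of 12 omissions of single mice. Those of Gadd45b and Gadd45a were lost under quantile normalization (p = 0.097 and 0.0626, exact permutation), that of Gadd45b also in 8 of 12 omissions and that of Gadd45a without sham mouse 1 (0.39).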

How the results depend on the processing

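The MCAO side difference of Gadd45g passed in 9 of 10 alternatives, at 1.32 to 1.40, and without each mouse in turn, at 1.24 to 1.49 (limma adjusted p 0.00034 to 0.0258). The exception was the fit with no replicate block, which ignores the pairing of hemispheres, where the same 1.32 did not pass. Its ipsilateral difference, not called on all arrays, passed without the 4 arrays (1.97) and with array weights (2.01, adjusted p = 1.4e-06), and without each mouse in turn ran from 1.67 to 2.53, passing only without MCAO mouse 3. The contralateral difference of Gadd45a changed sign without the 4 arrays (0.072) and with array weights (0.072), and ran from -0.53 to 0.27 without each mouse. Over single mice, the exact permutation test of the side difference lost its call under quantile normalization for Gadd45a (1.02, p = 0.0626) and Gadd45b (0.70, p = 0.097). Without each mouse Gadd45a ran from 0.39 to 1.11, losing its call without sham mouse 1, and Gadd45b from 0.53 to 0.80, losing it in 8 of 12 cases, while Gadd45g kept its call in 12 of 12. Gadd45g minus Gadd45b passed without the 4 arrays (0.94) and ran from 0.55 to 0.94 without each mouse, and Gadd45g minus Gadd45a ran from 1.12 to 1.37, losing its call in 6 of 8 cases, where fewer mice also raise the smallest possible p. Without MCAO mouse 3 the correlations were 0.43 for Gadd45g with Gadd45b, 0.04 for Gadd45g with Gadd45a and 0.25 for Gadd45b with Gadd45a. Without the 2 farthest mice they were 0.56, -0.46 and 0.18. Where no cause is stated, the cause was not tested.

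Called probe sets in the MCAO side comparison numbered 19, against 0 with no replicate block, 9 with only MCAO mice, 6 after quantile normalization, 29 with mouse as a random block, 30 on 20 arrays, 64 with array weights and 10 to 23 without each mouse. The ipsilateral count of 1 became 33 on 20 arrays, 50 with array weights and 0 to 17 without each mouse. The interaction count was 1 with a random block, the contralateral count 1 with array weights and the sham count 0 to 1 without each mouse, all against 0. Gadd45a has no value without dim probe sets, since it was left out there as dim, and its signals near background limit what can be read from them.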
